A study of Zea mays with 4 samples.

Results

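The miR166 family was taken as every known maize miRNA of the deposited table whose name begins with zma-miR166 (zma for Zea mays, left out of most names below), which gave 14 of 270 names (161 known and 109 predicted). These 14 names shared 4 distinct mature sequences, of 181 distinct sequences in the table and 72 among the known miRNAs. The rule used the names and no read count, though it was set with earlier results of these data known. Small RNAs of the maize inbred line B73 were sequenced from 4 tissues: pollinated silks (PS), mature silks (MS), germinated pollen (GP) and mature pollen (MP). The MS silks extended about 5 cm beyond the bracts, and the PS silks were such silks taken 30 min after an excess of live pollen was applied, so that they also held adhering grains and growing tubes. GP was pollen cultured for 30 min in liquid medium, and both pollen samples came from lots in which over 90% of grains germinated. Each tissue was 1 library with no replicate, so the tests below compare the reads of 2 libraries and not 2 conditions. Messenger RNA markers of pollen or silk are not measured by small RNA reads, and the tissue labels could not be checked in that way.

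miR166 is one of the most conserved plant miRNA families. Its best known targets are the class III homeodomain-leucine zipper (HD-ZIP III) genes, whose products specify the upper (adaxial) side of leaves and act in shoot meristems and in vascular tissue. In maize leaves, miR166 limits the HD-ZIP III gene rolled leaf1 to the adaxial side. The mature strand is loaded into an ARGONAUTE protein and pairs with a site in the target messenger, which is then cut or held back from translation.

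The 4 mature sequences are shown because the comparisons turn on which of their bases differ. They are written 5′ to 3′ in DNA letters as deposited, with the seed (bases 2 to 8) in capitals.
miR166a: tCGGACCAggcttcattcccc
miR166b to miR166i: tCGGACCAggcttcattccc
miR166j/k/n: tCGGACCAggcttcaatccct
miR166l/m: tCGGACCAggcttcattcctc
The sequence of 20 nt carried by 8 names is called the main sequence here, and the other 3 sequences had 21 nt. All 4 shared the seed, which was present in 0 other known and 0 predicted sequences of the table. miR166a was the main sequence with 1 more base at its 3′ end. miR166j/k/n differed inside the sequence, by T16A relative to the main sequence (main base, position from the 5′ end, member base), and miR166l/m differed near the 3′ end, by C20T.

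This position matters for what the counts can separate. When up to 2 end bases were removed from each sequence, miR166a shared 3 of its 6 shortened forms with the main sequence, miR166l/m shared 1, and miR166j/k/n shared 0. Reads of miR166a and of the main sequence therefore cannot be told apart in full, whereas miR166j/k/n could be counted on its own.

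The deposited counts also differed between names that carry one and the same sequence. For the main sequence, zma-miR166b, miR166c, miR166d, miR166e and miR166i had 4763 reads in PS, 4276 in MS, 246 in GP and 233 in MP. zma-miR166f and zma-miR166h had 4729 reads in PS, 4203 in MS, 179 in GP and 218 in MP, and zma-miR166g was within 2 reads of these in every library. The gap between miR166b and miR166f was 0.714% of the miR166b reads in PS and 1.71% in MS, but 27.2% in GP and 6.44% in MP. For the other shared sequence, zma-miR166l had 315 reads in PS, 261 in MS, 73 in GP and 23 in MP, against 131, 96, 6 and 8 reads of zma-miR166m in the same libraries. The gap between miR166l and miR166m was 67 reads in GP and 15 in MP, the same numbers of reads as the gap between miR166b and miR166f. In silks the gaps did not match, at 184 reads against 34 in PS and 165 against 73 in MS. Below, a sequence is represented by its name with the most reads (miR166b, miR166k and miR166l), and results that change with the other names are given beside it.

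The libraries held 5205129 clean reads in PS, 5775303 in MS, 10575042 in GP and 3638941 in MP. Levels are given as TPM, the reads of a name scaled to a common number of clean reads, so that 1 read was worth 0.192 TPM in PS, 0.173 in MS, 0.0946 in GP and 0.275 in MP. A count of 0 was treated as allowing up to 3 reads, which is 0.576 TPM in PS, 0.519 in MS, 0.284 in GP and 0.824 in MP. Intervals and these floors cover counting error only, since reads amplified by PCR are not independent molecules.

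The main sequence was an abundant miRNA of silks and a scarce one of pollen on this scale. It reached 915 TPM in PS, 740 TPM in MS, 23.3 TPM in GP and 64.0 TPM in MP. The 2 silk libraries lay far above the 2 pollen libraries. zma-miR166a, with 4770 reads in PS, 4283 in MS, 247 in GP and 233 in MP, gave nearly the same levels, 916 TPM in PS, 742 TPM in MS, 23.4 TPM in GP and 64.0 TPM in MP.

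miR166l/m was lower, at 60.5 TPM in PS, 45.2 TPM in MS, 6.90 TPM in GP and 6.32 TPM in MP. miR166j/k/n had 38.4 TPM in PS and 29.4 TPM in MS, and no read in GP or in MP. It was thus detected in both silk libraries and in neither pollen library. This was not particular to it, since known sequences such as miR164f, miR164h, miR394a/b and miR399e/i/j had the same pattern.

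**Figure D1:**
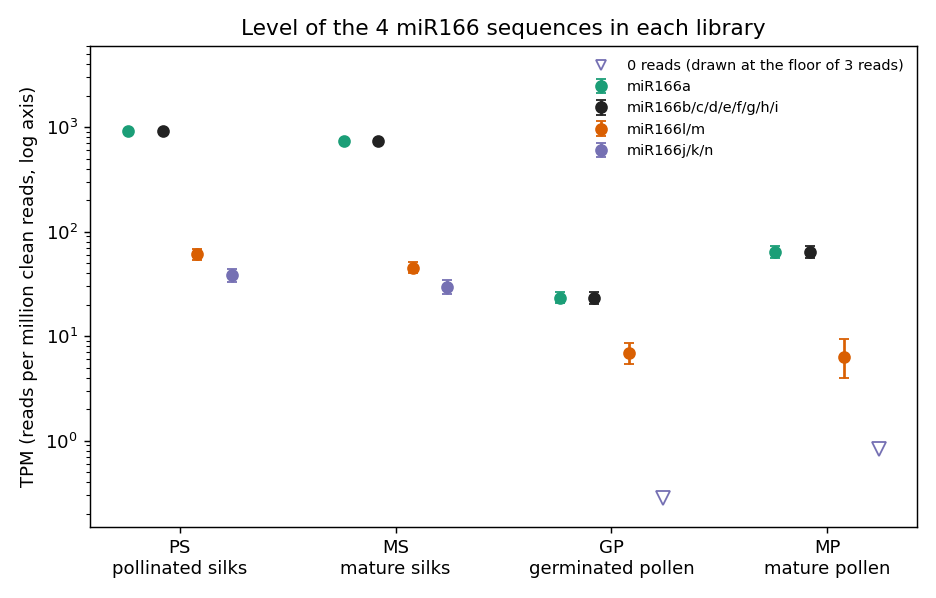
TPM (log axis) of the 4 miR166 sequences in PS, MS, GP and MP, with exact Poisson 95% intervals; open triangles mark 0 reads and stand at the floor of 3 reads. The main sequence and miR166a lie together at 915 and 916 TPM in PS and at 23.3 and 23.4 TPM in GP, and miR166j/k/n has no read in either pollen library.

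Among known sequences with reads, the main sequence ranked 11 of 62 in PS, 8 of 57 in MS, 9 of 46 in GP and 6 of 38 in MP. It made up 2.54% of the reads of distinct known sequences in PS, 2.30% in MS, 0.558% in GP and 1.17% in MP. Low TPM in pollen therefore went with a rank close to that in silks. The TPM of all 4 sequences summed to 1930 in PS, 1557 in MS, 53.5 in GP and 134 in MP. Because overlapping sequences can count a read more than once, a sum of the largest of them and miR166j/k/n was also taken, and it was 955 TPM in PS, 771 TPM in MS, 23.4 TPM in GP and 64.0 TPM in MP.

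The comparison of MS with MP asked how the mature female and male tissues differed. The main sequence was 11.6-fold higher in MS (95% interval 10.1 to 13.3), with 740 TPM in MS against 64.0 TPM in MP. miR166l/m was 7.15-fold higher (4.66 to 11.5). miR166j/k/n was 35.7-fold higher with its 0 reads in MP set to the floor of 3 (exact lower limit 28.7). All 4 sequences passed the limits, namely p under 0.01 (exact test of Fisher, 2-sided) with a log2 ratio above 1.5. In this direction, 29.0% of the 162 distinct sequences with reads passed, and 53.3% of the 60 known ones. All 14 names also passed, beside 44.4% of 248 names.

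The main sequence lay close to the median of the other known miRNAs in this comparison. The log2 ratio of the main sequence was 3.53, and the median over the 36 other known sequences with at least 10 reads was 3.57, with 19 above the main sequence and 17 below. miR166l/m was at 2.84, and miR166j/k/n was at 5.16 with MP at the floor (exact lower limit 4.84). After scaling by the reads of known miRNAs alone, the log2 ratio of the main sequence was 0.97, and with trimmed mean of M values (TMM) factors it was 0.17, both short of the limit. TMM factors from the 2 libraries added -3.36 to every log2 ratio here, -3.09 in PS against GP, -0.25 in PS against MS and 1.41 in GP against MP. With MP at the floor, miR166j/k/n stayed past the limits under each scaling, at 1.63 to 2.60 on the log2 scale. By contrast, miR166l/m was at -0.52 with TMM factors and at -0.69 with median-ratio factors.

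In pollinated silks against germinated pollen the difference was wider. The main sequence was 39.3-fold higher in PS (34.6 to 44.9), and miR166l/m was 8.77-fold higher (6.78 to 11.5). miR166j/k/n, which had no read in GP, was 135-fold higher in PS with GP set to the floor (exact lower limit 109). All 4 sequences again passed the limits, as did 42.5% of the 174 distinct sequences tested and 59.4% of the 69 known ones. So did all 14 names, beside 55.8% of 260 names. The log2 ratio of the main sequence was 5.30, beside a median of 4.69 over 41 other known sequences, of which 16 were above it and 25 below. It stayed past the limits under each other scaling, at 1.88 to 2.28, while miR166l/m lost its call under each of them, at 0.04 with TMM factors, 0.11 with median-ratio factors and 0.02 with known reads, and at 0.02 and -0.29 with TMM and median-ratio factors from all 4 libraries.

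The comparison of GP with MP asked what changed when pollen germinated. The main sequence was 2.75-fold lower in GP (2.29 to 3.31), with 23.3 TPM in GP against 64.0 TPM in MP (log2 ratio -1.46, interval -1.73 to -1.20). Fisher's exact test gave p = 3.43e-27, and 6.02e-26 after Benjamini-Hochberg adjustment over all distinct sequences. The size of the ratio fell just short of the limit of 1.5. miR166a had a log2 ratio of -1.45, miR166l/m did not differ beyond counting error (log2 ratio 0.13, interval -0.57 to 0.87, exact test p = 0.815), and miR166j/k/n had 0 reads in both libraries. Thus 0 of the 3 sequences with reads were past the limits, beside 8.94% of 123 distinct sequences called lower and 12.2% called higher.

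The outcome differed between names. Counted by name, miR166f, miR166g and miR166h passed the limits with a log2 ratio of -1.82 each. Thus 3 of the 11 names with reads were called lower in GP, beside 17.5% of 189 names tested. Called higher were 0 names, beside 8.99%. The 3 lower names carry the main sequence with nearly the same counts, so they are not separate results. miR166m had a log2 ratio of -1.95 (interval -3.76 to -0.24) on 6 reads in GP and 8 in MP, and its exact test p of 0.0120 missed the limit. The study, which used a chi-square test, did list miR166m as lower in GP, beside miR166f, miR166g and miR166h. It also measured these names by stem-loop real-time RT-PCR. The patterns were reported as similar to sequencing, with a slightly different level for miR166m. In the counts, miR166l, with the same sequence as miR166m, had a log2 ratio of 0.13. The names of 1 sequence were therefore on both sides of the limit.

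**Figure D2:**
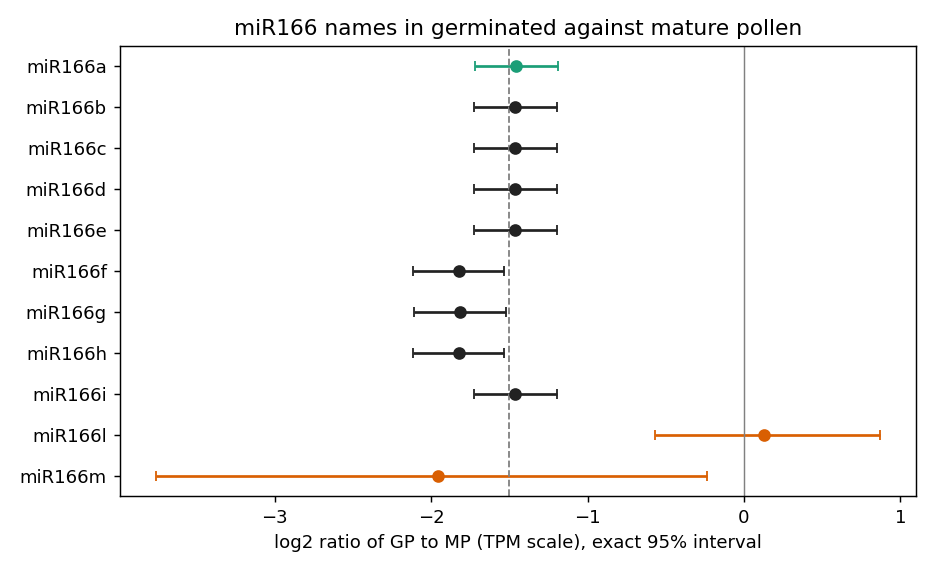
The log2 ratio of GP to MP for the 11 miR166 names with reads, with exact 95% intervals; the dashed line is the limit of -1.5. miR166f, miR166g and miR166h lie at -1.82, the other names of the main sequence at -1.46, and miR166l (0.13) and miR166m (-1.95) lie apart although they carry one sequence.

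Other known miRNAs mostly had higher ratios in this comparison. The median log2 ratio of the 18 other known sequences with at least 10 reads was 0.30, with 14 above the main sequence and 4 below. The ratios depended on scaling. That of the main sequence was -1.07 relative to the reads of known miRNAs, -0.34 with median-ratio factors and -0.05 with TMM factors, each from the 2 libraries, and -1.96 with TMM factors from all 4 libraries. The 3 calls by name ended with known reads (-1.44 for miR166f), median-ratio factors (-0.70) and TMM factors (-0.41) from the 2 libraries and with median-ratio factors from all 4 (-1.15), and held with TMM factors from all 4 (-2.32). miR166l/m was called higher in GP with TMM factors from the 2 libraries (log2 ratio 1.54, Fisher's exact test, adjusted p = 1.04e-05) and was at 1.25 with median-ratio factors (adjusted p = 0.000589), short of the limit of 1.5.

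The comparison of PS with MS asked what changed in silks on pollination. The main sequence was 1.24-fold higher in PS (1.19 to 1.29), with 915 TPM in PS against 740 TPM in MS. On clean reads, the log2 ratio of 0.31 exceeded counting error (exact test p = 8.19e-24) and was far below the limit of 1.5. This ratio depended on scaling. It was 0.14 with known reads, 0.06 with TMM factors (exact test p = 0.0540) and 8.12e-05 with median-ratio factors, each from the 2 libraries. With median-ratio factors from all 4 libraries it was 0.75. miR166l/m had a log2 ratio of 0.42 (interval 0.18 to 0.66) and miR166j/k/n of 0.38 (0.08 to 0.69). None of the 4 sequences was called higher, beside 6.96% of 158 distinct sequences, or lower, beside 2.53%. By name, 0 of 14 were higher, beside 9.76% of 246 names, and 0 were lower, beside 4.47%.

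The main sequence lay at the middle of the known miRNAs here, where 40 other known sequences had a median log2 ratio of 0.33, with 20 above it and 20 below. PS also held pollen. Over 7 sequences chosen for a level of at least 5 TPM in each pollen library and at least 5 times that in MS, the summed level was 4.23 TPM in PS, 13.3 TPM in MS, 425 TPM in GP and 220 TPM in MP, and 5 of the 7 had no read in PS. The only member higher in PS was 1 predicted miRNA, with 15 reads in PS against 10 in MS, and miR159h/i made up 7.62 of the 13.3 TPM in MS. The list was chosen in part by its MS level, and the part of pollen RNA in the PS values was not tested.

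**Figure D3:**
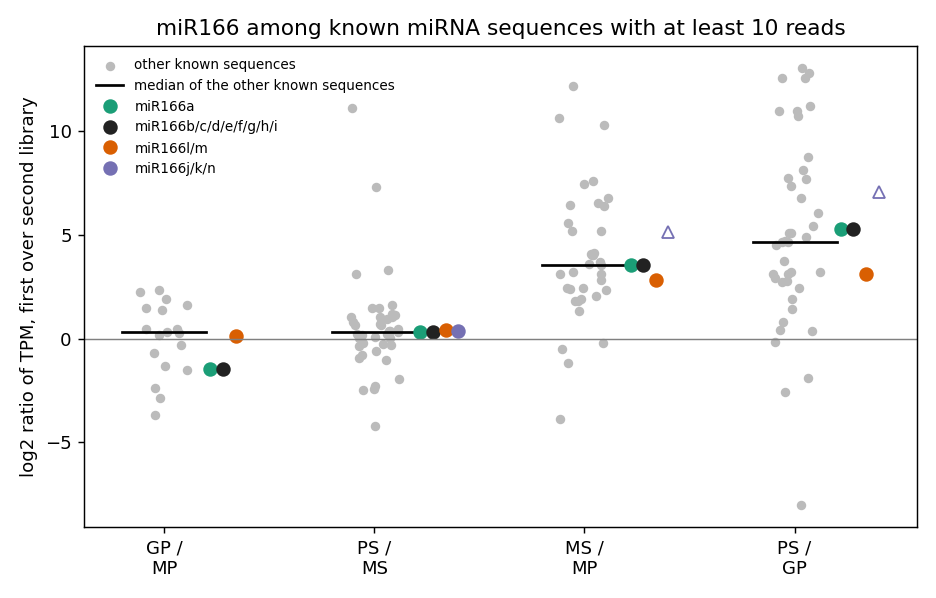
The log2 ratio of TPM, first over second library, in 4 comparisons for the miR166 sequences (coloured) and for other known sequences with at least 10 reads in a library (grey). Counts of 0 reads are set to the floor, and open triangles mark miR166 sequences with such a count in the second library. The main sequence lies near the median bar in PS against MS (0.31 beside 0.33) and MS against MP (3.53 beside 3.57), and below it in GP against MP (-1.46 beside 0.30).

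Shares within the family do not depend on the scaling of libraries. miR166j/k/n made up 4.03% of its own reads plus those of the main sequence in PS (exact 95% interval 3.50 to 4.61) and 3.82% in MS (3.28 to 4.43). In pollen it made up 0 of 246 reads in GP (exact 95% interval 0 to 1.49%) and 0 of 233 reads in MP (0 to 1.57%). At the silk share, 10.3 reads would have been counted in GP and 9.26 in MP. The share was higher in PS than in GP (Fisher's exact test, adjusted p = 0.000250 over 7 tests) and in MS than in MP (adjusted p = 0.000402). PS and MS did not differ beyond counting error (exact test p = 0.633).

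miR166l/m made up 6.20% in PS, 5.75% in MS, 22.9% in GP (18.4 to 27.9) and 8.98% in MP (5.78 to 13.2). As counted, the share in GP was above that in MP (Fisher's exact test, adjusted p = 3.15e-05) and above that in PS (adjusted p = 1.33e-19). The shares, intervals and tests take the reads of miR166l and miR166b as separate. Some reads may stand in both counts, since the sequences have a shortened form in common. With the names of fewest reads, miR166m and miR166f, the shares were 2.70% in PS, 2.23% in MS, 3.24% in GP and 3.54% in MP, and GP no longer differed beyond counting error from MP (exact test p = 1) or from PS (adjusted p = 0.874). The share of miR166j/k/n still differed with the names of fewest reads, with adjusted p = 0.00437 for PS against GP and 0.00244 for MS against MP (Fisher's exact test).

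**Figure D4:**
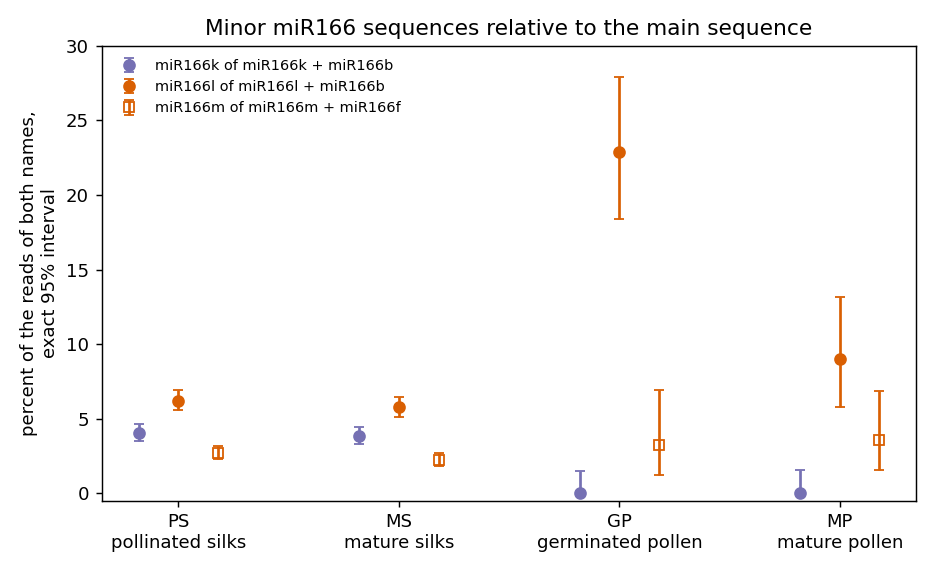
Percent of the reads of both names that belong to the minor sequence, in PS, MS, GP and MP, with exact 95% intervals. miR166k is at 4.03% in PS and 3.82% in MS and has 0 reads in pollen, whereas the value of miR166l in GP (22.9%) is far from that of miR166m (3.24%).

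Outside the miR166 family, the known sequence whose profile over the 4 libraries was most like the main sequence was miR167a/b/c/d, a regulator of auxin response factors, with 607 reads in PS, 574 in MS, 11 in GP and 28 in MP. Likeness was the distance between log2(TPM + 1) values centred on their mean, and miR167a/b/c/d was at 0.571, against a median of 2.65 over the 40 sequences of other families. It was followed by miR162, which targets DICER-LIKE1 (0.848), miR319a/b/c/d, which targets TCP genes (0.859), miR164h, which targets NAC genes (1.20), and miR396c/d, which targets growth-regulating factors (1.36). Within the family, miR166a was at 0.00401, while miR166j/k/n was at 1.25 and miR166l/m at 1.91, farther from the main sequence than miR167a/b/c/d was. This is a description over 4 libraries only. The added 1 TPM narrows differences among low counts. In each pollen library miR319a/b/c/d had 1 read and miR164h had 0.

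Of 6 families that act with miR166 in leaf polarity, meristems or vascular tissue (miR160, miR164, miR171, miR319, miR390 and miR396), 20 distinct sequences had reads. In GP against MP, 1 was higher and 3 were lower of 14 tested, beside 2 (3.92%) and 7 (13.7%) of 51 known sequences, which became 10 and 1 with TMM factors. The higher one was miR390a/b, which triggers the tasiRNAs that restrain auxin response factors, with 347 reads in GP against 25 in MP. The lower ones were miR396a/b, miR160a/b/c/d/e/g and miR164a/b/c/d/g. miR396a/b had 382 reads in GP against 693 in MP. miR160a/b/c/d/e/g had 2 reads in GP against 8 in MP, and miR164a/b/c/d/g had 0 against 4. Their log2 ratios on clean reads were -2.40, -3.54 and -1.95 (GP at the floor). TMM factors from the 2 libraries added 1.41 to each, and with them only 1 known sequence was called lower. These 3 calls therefore do not all hold under that scaling.

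In PS against MS, 2 of 19 were higher and 1 lower, beside 6 (9.09%) and 4 (6.06%) of 66 known sequences. These were miR171b, with 6126 reads in PS against 42 in MS, miR171f, with 6037 reads in PS against 3 in MS, and the lower miR160a/b/c/d/e/g, a regulator of auxin response factors, with 34 reads in PS against 207 in MS. miR171 acts on SCARECROW-like genes. The miR166 sequences, at 1.24-fold to 1.34-fold, were not among those past the limits. In MS against MP 10 of 19 were higher and 0 lower, beside 32 (53.3%) higher and 1 lower of 60 known sequences, which became 12 and 5 with TMM factors. In PS against GP 14 of 20 were higher and 0 lower, beside 41 (59.4%) and 2 of 69, which became 23 and 12.

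The study predicted targets by pairing each sequence with maize transcripts. The main sequence had 24 predicted sites in 23 transcripts of 12 genes, and 7 of the 12 genes were annotated as homeodomain-leucine zipper proteins with a START lipid-binding domain. These were GRMZM2G109987, known as rolled leaf1 (rld1), GRMZM2G042250, known as rld2, GRMZM2G178102, GRMZM2G003509, GRMZM2G469551, AC187157.4 and AC190829.3. In rld1 the site lay at positions 1040 to 1059 of transcript T01, and in rld2 at positions 629 to 648 of its T01.

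None of these 7 genes was listed for another miR166 sequence. miR166a had 5 sites in 4 genes, miR166j/k/n had 7 sites in 4 genes, and miR166l/m had 4 sites in 3 genes. The 3 genes GRMZM2G045098, GRMZM5G845891 and AC208827.3 were listed for all 4 sequences. The prediction allowed fewer than 3 mismatches, and the list, which depends on that limit, does not show that miR166a lacks these targets in the plant. Of the 12 genes, 0 had a site listed for another miRNA, among 258 target genes over all miRNAs. How many of the 258 genes had sites of several miRNA families was not counted, so this cannot be called particular to miR166. Levels of these messengers were not analysed here.

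**Figure D5:**
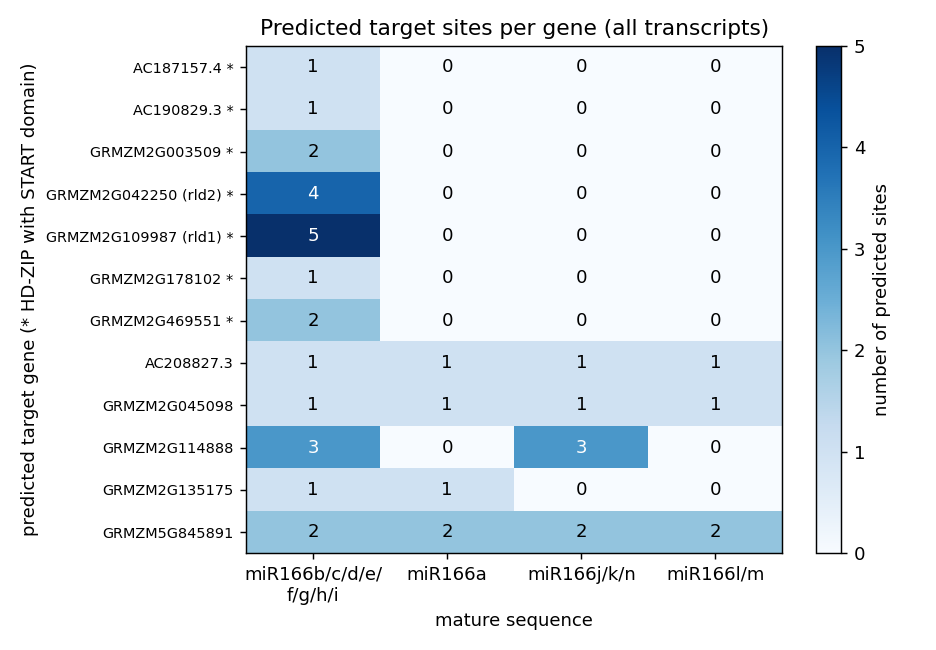
Number of predicted target sites in each of the 12 genes (rows; asterisks mark the 7 HD-ZIP genes) for the 4 mature sequences (columns), summed over transcripts. The 7 HD-ZIP genes have sites of the main sequence alone, and 3 genes have sites of all 4 sequences.

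In the RefSeq gene table of the assembly Zm-B73-REFERENCE-NAM-5.0, used here for names and neighbours only, 13 of the 14 names had a MIR166 locus, the exception being miR166n. MIR166k and MIR166m were the 1 pair of neighbouring loci. Both names had reads in silks, with 200 of miR166k and 131 of miR166m in PS and 170 and 96 in MS. In pollen miR166k had 0 reads in either library, and miR166m had 6 in GP and 8 in MP. Each of these mature sequences is shared with other names, so the reads cannot be given to either locus, and the difference between the names was not tested.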

How the data were processed

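Each tissue gave 1 Solexa library, made from the 18 to 30 nt fraction of total RNA with 18 cycles of PCR. The authors matched clean reads to miRBase release 18.0 and to the maize RefGen version 2 genome and deposited, for each miRNA name, raw read counts and TPM (reads scaled to a common total of clean reads). The table also holds p-values of the authors' pairwise comparisons, which were not used, and predicted targets. Columns of per-sample values left unused numbered 0. Clean reads per library were recovered from count and TPM. Names with one sequence were counted once, by the name with most reads.

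For each pair of libraries, the reads of a sequence and all remaining clean reads entered Fisher's exact test (2-sided), with Benjamini-Hochberg adjustment over all distinct sequences with reads (scipy 1.17.1), and exact 95% intervals. Limits followed the study: p below 0.01 with a log2 ratio beyond 1.5 in either direction, except that in silks a higher call also needed over 10 times a pollen count and a lower call a log2 ratio under -2. With 1 library per tissue no replicate spread could be estimated. TMM factors (edgeR 4.0.16) and median-ratio factors (DESeq2 1.42.0) served only as other scalings, together with known-read totals, the name of fewest reads, a chi-square test, an added read and a minimum of 10 reads. The scalings by name were added after seeing the data. The test was checked on simulated Poisson counts. These held no PCR copies, replicate spread or reads shared between sequences, so the check does not cover them. Named sequences were all miR166 names, the 5 nearest profiles, and listed members past the limits; the carry-over list needed 5 TPM in both pollen libraries and 5 times the MS level. HD-ZIP annotation came from the study's supplement. The members and lists were chosen with earlier results of these data known.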

Additional observations from a re-analysis of the deposited data

How the results depend on the processing

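Of 127 ratios and share differences recomputed under another setting, 98 kept their direction and call, 16 lost a call, 4 gained one and 9 changed sign; of the 8 log2 ratios among these 9, 5 also lost a call. Of 64 counts of known sequences, 36 stayed within 1.5 times, 14 went down and 14 went up, and the 4 family levels moved. No paired analysis was possible because each tissue had 1 library. The main sequence in GP against MP passed the limit with the name of fewest reads (-1.82) and with TMM factors from all 4 libraries (-1.96), a setting chosen after seeing the data, as were the median-ratio factors from all 4 libraries. In MS against MP it fell short with TMM factors from either set of libraries (0.17), with median-ratio factors from the 2 libraries (3.06e-07, where it is itself the median) or all 4 (0.34), and with known reads (0.97). miR166l/m became higher in GP than in MP with TMM factors from the 2 libraries (1.54), and lost its call in PS against GP with TMM (0.04), median-ratio factors (0.11) and known reads (0.02). Its log2 ratios changed sign in GP against MP with the name of fewest reads (-1.95) and TMM from all 4 libraries (-0.37), in MS against MP with TMM (-0.52) and with median-ratio factors from the 2 libraries (-0.69) or all 4 (-0.35), and in PS against GP with median-ratio factors from all 4 (-0.29). miR166a in PS against MS changed sign with median-ratio factors from the 2 libraries, at -0.00016. With the names of fewest reads, the share of miR166l/m differed by -0.297 percentage points in GP against MP and by -0.548 in PS against GP. The family level without overlapping sequences was 955 TPM in PS, 771 in MS, 23.4 in GP and 64.0 in MP.

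Counts of known sequences past the limits also moved. In GP against MP, 2 higher and 7 lower became 10 and 1 with TMM factors, 5 and 2 with median-ratio factors, 1 and 13 with TMM from all 4 libraries, and 2 and 3 with at least 10 reads. In PS against MS, 6 higher became 11 with median-ratio factors from all 4 libraries. In MS against MP, 32 higher and 1 lower became 12 and 5 with TMM, 11 and 5 with median-ratio factors, 13 and 5 with those from all 4, and 15 and 5 with known reads. In PS against GP, 41 higher and 2 lower became 23 and 12 with TMM or known reads, 25 and 12 with median-ratio factors, and 19 and 12 with those from all 4. Beyond the scalings' own construction, the cause was not tested.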
